A study of Mus musculus with 9 samples.

Results

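The genes described here are 4 keratins of simple epithelia, Krt7, Krt8, Krt18 and Krt19, the epithelial adhesion molecule Epcam, and 3 genes used as markers of mesothelium, Msln, Upk3b and Wt1. They were taken by symbol, with all of their probe-sets, which gave 8 of 18194 named genes and 12 of 45101 probe-sets. Expression was measured on 9 Affymetrix MOE430_2.0 arrays with 1 GCRMA log2 signal per probe-set and array. The cells were primary mouse embryonic fibroblasts (MEFs), cultures grown out of minced embryos, from 13.5 day embryos of a C57BL/6J x 129Sv/J background. All were grown in DMEM with 10% fetal bovine serum, re-seeded at a fixed density every 3 days and left untreated. The 3 groups were Tgif1 -/- cells (Tgif1 null) at passage 3 (P3), wild type cells at P3 and wild type cells at passage 5 (P5), with 3 arrays each from biological triplicates. The null lacks Tgif1, a transcriptional corepressor that limits TGFβ signalling, in every cell, and no null culture at P5 was analysed here. Whether the triplicates came from separate embryos is not given in the sources used here, so p-values measure the spread between these cultures.

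Keratins are the intermediate filament proteins of epithelial cells. A filament needs a type II keratin, such as Krt7 or Krt8, paired with a type I keratin, such as Krt18 or Krt19, and Krt8 with Krt18 is the first pair made in the embryo and the common pair of simple epithelia. Mesothelium, the cell layer that lines the body cavities, makes the same keratins together with mesothelin (Msln), uroplakin 3b (Upk3b) and, in the embryo, the transcription factor Wt1. Fibroblasts use vimentin filaments instead, and a MEF culture can carry epithelial or mesothelial cells from the embryo. In bulk RNA, fewer cells of a type and less RNA per cell cannot be told apart.

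The promoters of 5 of the genes are shown, those of 3 genes that lie in 1 keratin cluster and differed in signal and in pattern over the arrays, and those of Epcam and Upk3b, which stayed near the lowest array value in every group. No window was at hand for Krt19, Msln and Wt1. Each line holds the 250 bases before the RefSeq start of the gene, 5′ to 3′ on the gene's strand, in assembly GRCm38.p6: Krt18 at chr15:102027966-102028215 (+), Krt8 at chr15:102004343-102004592 (-), Krt7 at chr15:101412153-101412402 (+), Epcam at chr17:87635729-87635978 (+) and Upk3b at chr5:136038246-136038495 (+). Capitals mark CACCTG on either strand (CAGGTG when read on the strand shown), the E-box letters to which the Snai and Zeb repressors of epithelial genes are known to bind.
Krt18: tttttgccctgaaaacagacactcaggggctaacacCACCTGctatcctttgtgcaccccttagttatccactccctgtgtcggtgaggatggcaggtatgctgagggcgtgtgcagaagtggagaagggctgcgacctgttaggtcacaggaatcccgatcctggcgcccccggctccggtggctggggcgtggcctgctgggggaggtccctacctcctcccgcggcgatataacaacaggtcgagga
Krt8: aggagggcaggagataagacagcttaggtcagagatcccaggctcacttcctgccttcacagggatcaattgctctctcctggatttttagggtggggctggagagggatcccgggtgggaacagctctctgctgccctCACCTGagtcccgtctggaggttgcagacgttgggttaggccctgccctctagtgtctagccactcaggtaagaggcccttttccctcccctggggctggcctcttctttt
Krt7: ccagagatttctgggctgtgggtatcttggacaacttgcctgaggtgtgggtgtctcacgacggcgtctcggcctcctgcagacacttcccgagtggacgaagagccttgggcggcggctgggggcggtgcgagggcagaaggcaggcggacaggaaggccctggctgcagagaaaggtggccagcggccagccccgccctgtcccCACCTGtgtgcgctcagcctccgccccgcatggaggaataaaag
Epcam: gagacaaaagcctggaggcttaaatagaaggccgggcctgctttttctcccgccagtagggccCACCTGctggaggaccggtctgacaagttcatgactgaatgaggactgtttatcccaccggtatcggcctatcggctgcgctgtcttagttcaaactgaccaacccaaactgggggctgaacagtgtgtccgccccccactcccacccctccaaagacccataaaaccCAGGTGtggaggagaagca
Upk3b: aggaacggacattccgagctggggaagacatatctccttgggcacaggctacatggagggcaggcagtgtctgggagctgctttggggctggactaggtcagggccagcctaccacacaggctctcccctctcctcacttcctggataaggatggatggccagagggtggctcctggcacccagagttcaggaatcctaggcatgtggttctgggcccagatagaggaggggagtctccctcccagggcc
The letters occurred once each in the Krt18, Krt8 and Krt7 windows, with their first base 214, 111 and 44 bases before the start, and at 2 places in the Epcam window, 187 and 19 bases before it, and were not found in the Upk3b window. Of 32851 promoter windows of the same length, 17.2% held them at least once and 2.06% at 2 or more places. GGGCGG, the GC box, was found 4 times in the Krt7 window and once in that of Epcam on either strand, at no place overlapping CACCTG, was not found in those of Krt18, Krt8 and Upk3b, and was held by 32.7% of all windows. A match is a description of the letters, and no binding was measured here.

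Tgif1 itself had log2 signals of 2.48, 3.21 and 2.50 on the 3 null arrays and between 9.72 and 10.18 on the 6 wild type arrays, so that every null array lay far below every wild type array, although it was not checked whether its probes fall in the removed part of the gene. The lowest value on every array was 2.23, the first quartile of each array lay at it, and a gene near it cannot show a decrease, so that its differences are lower bounds. A log2 signal of 4 is used below as the mark of a gene above background. On at least 3 arrays, 10009 genes (55.0%) passed it. GCRMA gave 29064 probe-sets (64.4%) an identical value on 3 or more arrays, which makes the spread of weak probe-sets look very small. Arrays of 1 group correlated between 0.9961 and 0.9991 over all probe-sets.

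The signals went only in part with the name of the gene set. Krt7, Krt18, Krt19 and Msln were above 4 on all 9 arrays, and Krt8 was above 4 on 1 array. Epcam, Upk3b and Wt1 stayed below 4 on every array, as did Cdh1, the E-cadherin of epithelial junctions, at 2.23 on all 9. A complete epithelial or mesothelial marker set was thus not detected in any group, and the 8 genes are described below by name rather than as a cell type.

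**Figure D1:**
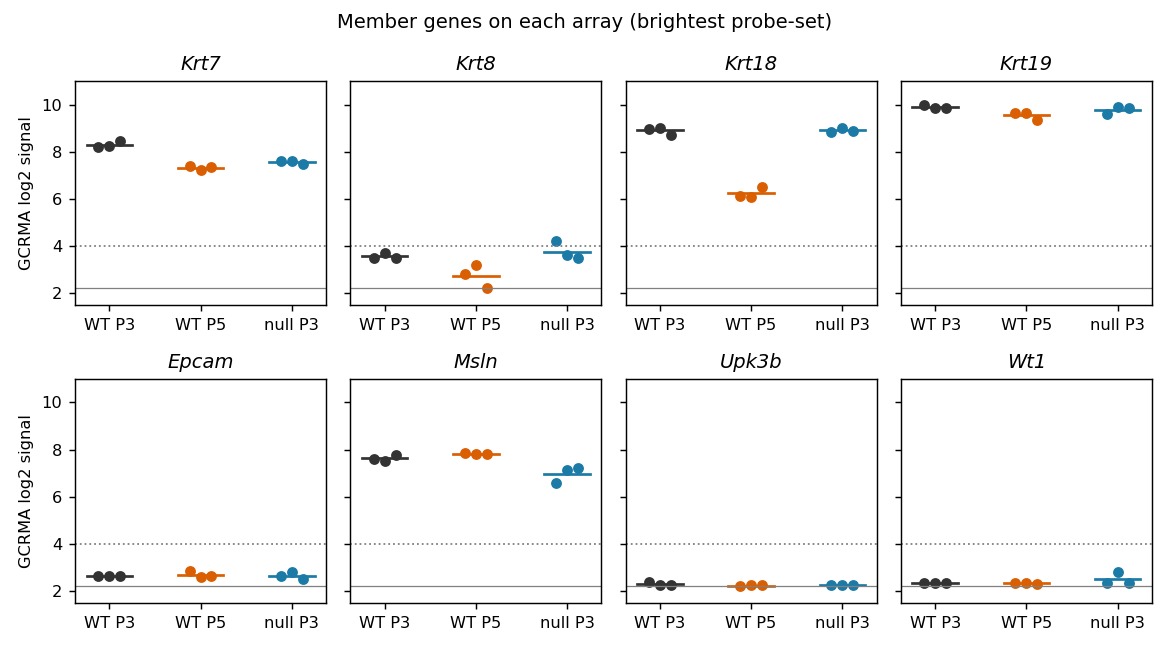
The 8 genes on each of the 9 arrays. Each panel plots the GCRMA log2 signal of the brightest probe-set of 1 gene for the 3 arrays (points) and the mean (bar) of wild type P3, wild type P5 and Tgif1 null P3, with the lowest array value (2.23) as a solid line and 4 as a dotted line. Krt18 lies between 8.73 and 9.01 at P3 in both genotypes and between 6.08 and 6.53 at P5, whereas Epcam, Upk3b and Wt1 lie near the lowest value in every group.

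Krt18, the type I partner of Krt8, differed most among the 8 genes. Its log2 signals were 8.98, 9.01 and 8.73 in wild type P3, 6.13, 6.08 and 6.53 in wild type P5, and 8.83, 9.01 and 8.90 in the Tgif1 null. Every P5 array lay more than 2 log2 units below every P3 array of either genotype, and the P3 arrays of both genotypes overlapped. From P3 (8.91 ± 0.16, SD, n = 3) to P5 (6.25 ± 0.25, SD, n = 3) Krt18 fell by 2.66 on the log2 scale (SE 0.14, 95% interval -3.00 to -2.32), 6.31-fold, with a limma adjusted p of 0.000411. The null (8.92 ± 0.09, SD, n = 3) differed from wild type P3 by 0.01 (95% interval -0.33 to 0.35, limma adjusted p = 1.0), an interval that holds no change beyond 0.35. Against P5, the null was higher by 2.67 (SE 0.14, 95% interval 2.33 to 3.01), 6.35-fold, with a limma adjusted p of 0.000475. Genotype and passage both differ between those groups and cannot be told apart in that value.

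Krt8, the type II partner of Krt18, has 3 probe-sets, all of them close to the lowest array value. The brightest gave log2 signals of 3.50, 3.71 and 3.50 in wild type P3, 2.82, 3.21 and 2.24 in wild type P5, and 4.20, 3.61 and 3.50 in the null. The P5 arrays were lowest and did not overlap with the others, yet the difference of -0.81 from P3 to P5 (SE 0.29, 95% interval -1.50 to -0.11) had a limma adjusted p of 0.186. The second probe-set gave 3.54, 3.34 and 3.34 in wild type P3, 2.58, 2.57 and 2.57 in wild type P5, and 3.57, 3.63 and 3.34 in the null. It fell by 0.84 from P3 to P5 (SE 0.09, limma adjusted p = 0.00339) and was higher in the null than at P5 by 0.94 (SE 0.09, limma adjusted p = 0.00245), below 4 on every array. The third lay between 2.23 and 2.56 on all arrays and differed by -0.04 from P3 to P5 (limma adjusted p = 1.0). The 2 brighter probe-sets are of a type (_x_at) whose probes can also match other transcripts. With the mean of the 3 probe-sets, the P5 to P3 difference was -0.56 with a limma adjusted p of 0.0107, and the null to P5 difference was 0.72 with a limma adjusted p of 0.00513.

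Krt7, a type II keratin of ducts and mesothelium, was highest in wild type P3. The signals were 8.19, 8.25 and 8.44 there, 7.39, 7.23 and 7.37 in wild type P5, and 7.61, 7.62 and 7.50 in the Tgif1 null. No 2 groups overlapped, with the null between P3 and P5. Krt7 fell by 0.96 on the log2 scale from P3 (8.29 ± 0.13, SD, n = 3) to P5 (7.33 ± 0.08, SD, n = 3), 1.95-fold (SE 0.08, 95% interval -1.15 to -0.78, limma adjusted p = 0.00133). In the null (7.58 ± 0.07, SD, n = 3) it was lower than in wild type P3 by 1.64-fold, a log2 difference of -0.72 (SE 0.08, 95% interval -0.90 to -0.53, limma adjusted p = 0.0143). The difference between null and P5 was 0.25 (95% interval 0.06 to 0.43, limma adjusted p = 0.14). The null to P3 call of Krt7 was lost with a trended and robust prior for the spread (adjusted p = 0.156), with the replicate number as a block (0.0931) and with the 6 arrays of both groups fitted alone (0.0857), whereas it was kept without any 1 array (0.0278 to 0.0494).

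Krt19, the smallest type I keratin, was well above background in all cultures. It gave 9.97, 9.84 and 9.85 in wild type P3, 9.65, 9.66 and 9.34 in wild type P5, and 9.59, 9.92 and 9.86 in the null. The P5 arrays lay below the wild type P3 arrays without overlap, and the null arrays overlapped with both. Its difference from P3 to P5 was -0.34 (SE 0.12, 95% interval -0.63 to -0.05), with a limma adjusted p of 0.19. The null differed from P3 by -0.10 (95% interval -0.40 to 0.19, limma adjusted p = 0.97) and from P5 by 0.24 (95% interval -0.06 to 0.53, limma adjusted p = 0.423).

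Msln, which encodes the surface protein mesothelin, ran another way. Its signals were 7.59, 7.52 and 7.75 in wild type P3, 7.86, 7.80 and 7.79 in wild type P5, and 6.58, 7.12 and 7.21 in the null. The P5 arrays were highest, the null arrays lowest, and no 2 groups overlapped. The difference from P3 (7.62 ± 0.12, SD, n = 3) to P5 (7.82 ± 0.04, SD, n = 3) was 0.20 (SE 0.17, 95% interval -0.20 to 0.60, limma adjusted p = 0.642), so a fall of more than 0.20 with passage lies outside the interval. The null (6.97 ± 0.34, SD, n = 3) was below wild type P3 by a log2 difference of -0.65 (95% interval -1.05 to -0.25, limma adjusted p = 0.167) and below P5 by -0.84 (SE 0.17, 95% interval -1.25 to -0.44, 1.80-fold, limma adjusted p = 0.033). The second of these passed the test, but in only 7 of 17 refits under alternative settings. It was lost without null replicate 2, without any 1 of the 3 wild type P3 arrays and without any 1 of the 3 P5 arrays, among others, with adjusted p-values over all refits from 0.00476 to 0.116.

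The other 3 genes had no signal above 4 to compare. The brighter probe-set of Epcam lay between 2.52 and 2.86, with 5 arrays at an identical 2.62, and the other at 2.23 throughout. Those of Upk3b lay between 2.23 and 2.37 and at 2.25. Wt1 lay between 2.31 and 2.81, with 7 arrays at an identical 2.34 and the highest value in null replicate 2. None of the 3 differed between groups by more than 0.17, and at this level of signal a loss with passage could not have been seen.

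**Figure D2:**
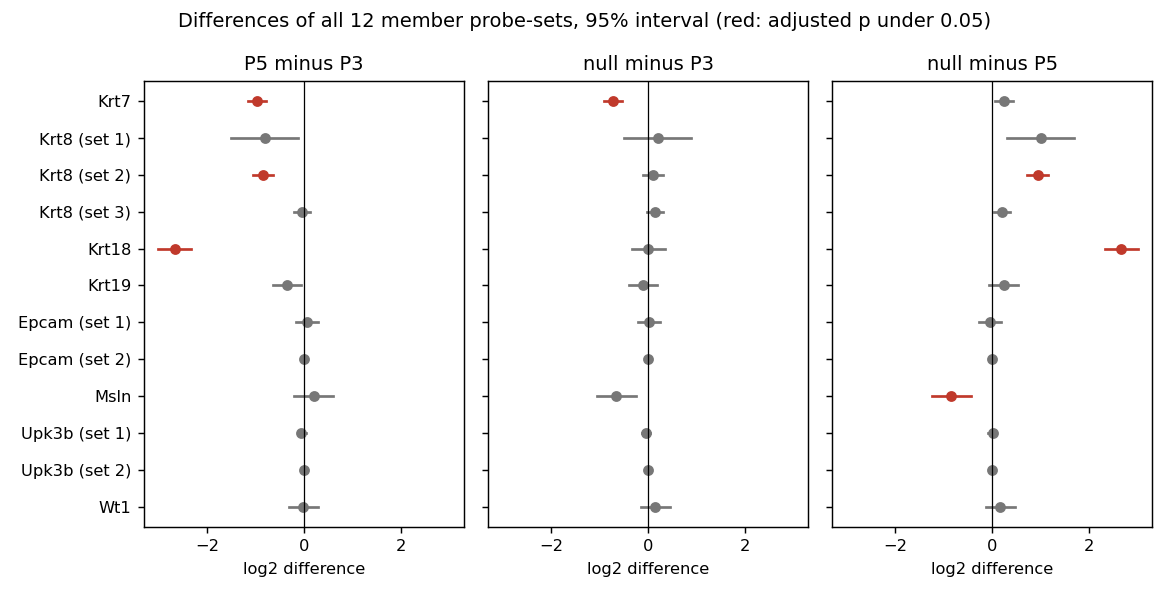
Log2 difference (point) and 95% interval (line) of all 12 probe-sets in the 3 comparisons, red where the limma adjusted p was under 0.05. Krt18 stands at -2.66 for P5 minus P3 and 2.67 for null minus P5, and Krt7 is red in both comparisons with wild type P3.

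Over the 8 genes, 2 fell from P3 to P5 (Krt7 and Krt18) and 0 rose by limma. Of all named genes, 7.11% fell and 6.13% rose, and 12.8% of the genes above 4 on at least 3 arrays fell. At an unadjusted p under 0.05, 4 of the 8 were lower and 0 higher. The share of all genes at the unadjusted p was not counted, so such counts, here and for the lists below, have no background. Of the 8, 1 fell between the null and wild type P3 (Krt7), with 1.07% of all genes and 1.92% of those above 4 falling and 1.51% of all genes rising. In the comparison of null and P5, 1 rose (Krt18) and 1 fell (Msln), against 6.08% and 5.33% of all genes, and 10.8% and 9.15% of those above 4. Of all probe-sets, 8.62% changed from P3 to P5 and 7.22% between the null and P5, the background for the second Krt8 probe-set. The medians of the 8 differences were -0.19 for P5 minus P3, -0.01 for null minus P3 and 0.20 for null minus P5. Over all named genes the median was 0.0 in each comparison, and over the genes above 4 it was -0.027, -0.01 and 0.035. The comparisons share arrays, so that the lower value at P5 enters both the first and the third.

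Groups of arrays that do not overlap were common. From P3 to P5 they were found for 5 of the 8 genes (Krt7, Krt8, Krt18, Krt19 and Msln), for 30.8% of all genes and for 53.8% of those above 4. Between the null and P3 there were 2 (Krt7 and Msln), with 16.0% of all genes and 27.7% of those above 4, and between the null and P5 there were 5 (Krt7, Krt8, Krt18, Msln and, at the lowest array values, Upk3b), with 29.9% and 51.9%. With 3 arrays against 3, an exact permutation test of a single gene cannot give a p below 0.1. The smaller p-values given here come from the limma model. It rests mostly on each probe-set's own spread within the groups, with 6 residual degrees of freedom. The spread shared over probe-sets weighed little, with 0.345 prior degrees of freedom.

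Pairs of members went together to different degrees over the 9 arrays. As a description, with groups that differ and arrays shared by all pairs, Pearson's r was 0.76 for Krt8 with its partner Krt18, 0.69 for Krt18 with Krt19, 0.68 for Krt7 with Krt18, 0.60 for Krt7 with Krt19, 0.58 for Krt8 with Krt19 and 0.43 for Krt7 with Krt8. Msln had r = 0.05 with Krt7, -0.12 with Krt19, -0.61 with Krt18 and -0.74 with Krt8, below every pair of keratins. The genes whose 9 values were most like those of Krt18, among 2122 genes spanning at least 1 log2 unit, were Dusp9 (r = 0.987), Zic1 (0.986), Mboat2 (0.985), Zdbf2 (0.983), Bex1 (0.982), Cotl1 (0.982), Tro (0.98), Atad5 (0.98), Cand2 (0.979) and Prr9 (0.977). For the mean standardised profile of the 4 members that spanned as much (Krt7, Krt8, Krt18 and Msln), they were Exo1 (0.992), Sfrp2 (0.989), Cd34 (0.984), Uhrf1 (0.982), Mcm5 (0.977), Tacc3 (0.976), H2az1 (0.976), Chaf1b (0.975), Ska1 (0.974) and Asf1b (0.971). That profile averages members that run against each other (r = -0.74 for Msln with Krt8), so likeness to it is not likeness to each member.

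Krt18 stands at the end of the type II keratin cluster of chromosome 15, with Krt8 next to it in the RefSeq annotation, and Krt7 towards the other end. From Krt80 to Krt18, 24 keratin genes were measured, of which 5 were above 4 on any array (Krt80, Krt7, Krt5, Krt8 and Krt18) and 3 on all 9. Among these 3 was Krt5, with 4 arrays at an identical 5.57. The next keratin genes beyond Krt8 (Krt77, Krt76, Krt4, Krt79 and Krt78) were at 2.23 or 2.24 on every array. On the other side of Krt18, 6 measured genes were above 4 on all arrays, and none of them was called from P3 to P5: the translation initiation factor gene Eif4b differed by -0.10 (limma adjusted p = 0.504), Tns2 by -0.04, Spryd3 by 0.04, Igfbp6 by 0.28 (limma adjusted p = 0.402), Csad by 0.38 (limma adjusted p = 0.103) and Zfp740 by -0.21 (limma adjusted p = 0.428). Their 95% intervals reached down to -0.49 at most, whereas that of Krt18 had its upper end at -2.32. In the null against P5, where Krt18 rose, Igfbp6 fell by 0.74 (limma adjusted p = 0.0305) and Csad by 0.65 (limma adjusted p = 0.0202).

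**Figure D3:**
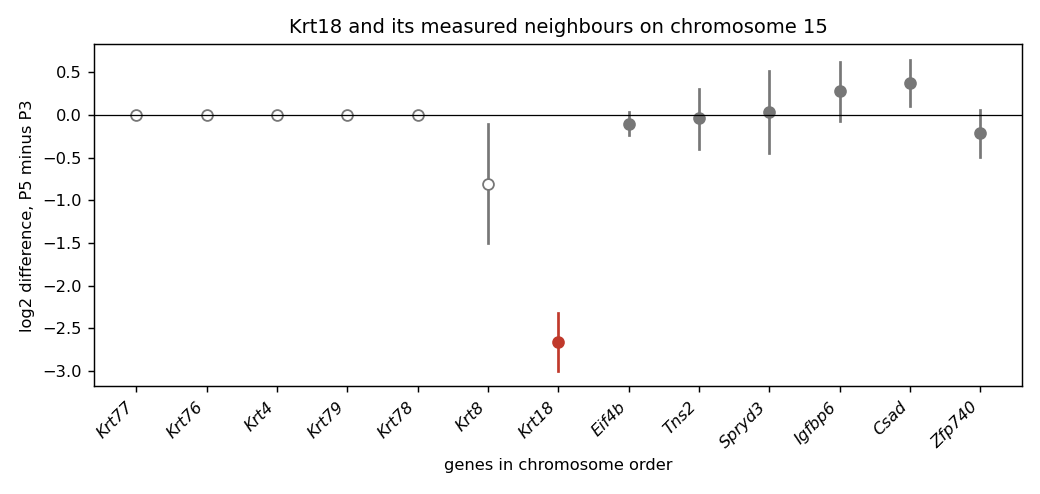
Log2 difference from P3 to P5 (point) with its 95% interval (line) for Krt18 and the 6 measured genes on each side of it in chromosome order. Filled points are genes above a log2 signal of 4 on all 9 arrays and red marks an adjusted p under 0.05, which Krt18 alone of these genes reached.

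The other keratins were read from a list of 15 genes, of which 5 were above 4 on any array. Krt80, a type II keratin at the far end of the same cluster, was at 4.93, 5.12 and 4.97 in wild type P3, 3.98, 3.88 and 3.96 in P5, and 3.98 on all 3 null arrays. It fell by 1.06 from P3 to P5 (SE 0.05, limma adjusted p = 0.000323) and was lower in the null than in wild type P3 by a log2 difference of -1.02 (SE 0.05, limma adjusted p = 0.00144). The second call was lost with the trended and robust prior (adjusted p = 0.055). Like Krt7, it was thus lower than wild type P3 in both other groups, with values just at the mark of 4. Krt10 (means of 7.44, 7.11 and 7.71 in wild type P3, P5 and null), Krt20 (5.49, 5.19 and 5.70), Krt5 (5.69, 5.53 and 5.57) and Krt42 (6.22, 6.16 and 6.25) did not pass the test in any comparison. The epidermal keratins Krt1, Krt14, Krt15, Krt16 and Krt17 were at 2.23 or 2.24 on every array. Krt5 and Krt10, also keratins of the epidermis, were above 4 on all 9 arrays. Krt5 lay only between 5.45 and 5.78, with 4 arrays at an identical 5.57, and Krt42 had 6 arrays at an identical 6.22. Such ties also occurred in the weak probe-sets, so that for these 2 genes a signal above 4 may still be background.

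Of 30 measured genes of epithelial adhesion, 8 were above 4, and from P3 to P5 1 rose and 1 fell. Perp, a desmosomal membrane protein that is also a target of p53, rose by 1.32 (7.40 to 8.72, SE 0.21, limma adjusted p = 0.0152), a call lost without wild type P3 replicate 1 or 3, without P5 replicate 1 or 2, and with the block (adjusted p up to 0.0639). The desmosomal cadherin Dsg2 fell by 0.51, from 3.22 to 2.70, below 4 on every array (limma adjusted p = 0.0091). That call was lost with the trended and robust prior (adjusted p = 0.0561). Dsp, the desmoplakin that ties keratin filaments to desmosomes, gave means of 5.81 at P3, 5.15 at P5 and 5.86 in the null, the order seen for Krt18, with a limma adjusted p of 0.0623 for P5 minus P3. Jup, which encodes plakoglobin, was higher in the null than at P5 by 0.88 (limma adjusted p = 0.0302, lost in 9 of the 17 refits), and Spint2, a protease inhibitor, was lower by a difference of -0.52 on an _x_at probe-set (limma adjusted p = 0.0103), a call lost with the trended and robust prior, with the block and with its brightest probe-set of another type (adjusted p up to 0.169). Between the null and wild type P3, limma called 0 of the 30, with 2 higher and 2 lower at an unadjusted p under 0.05. The 22 genes below 4 on every array give only bounds.

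Of 13 transcription and splicing regulators of epithelia, 2 were above 4 on any array, Klf5 (means of 9.75, 9.01 and 10.00 in wild type P3, P5 and null) and Esrp2 (3.53, 4.08 and 4.12), and limma called 0 of the 13 in any comparison (1 higher and 1 lower from P3 to P5 at an unadjusted p under 0.05). All 8 mesenchymal regulators were above 4 on all arrays. Snai2, a repressor that binds the E-box letters shown above, had means of 11.50, 11.64 and 11.45 and rose by 0.14 from P3 to P5 (SE 0.03, limma adjusted p = 0.0438), whereas Twist2 (10.24, 9.91 and 10.19) fell by 0.33 (SE 0.06, limma adjusted p = 0.0213). These small calls held in 5 and 10 of the 17 refits. Vim, the filament protein of fibroblasts, gave 15.17, 15.33 and 15.22 and was not called.

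**Figure D4:**
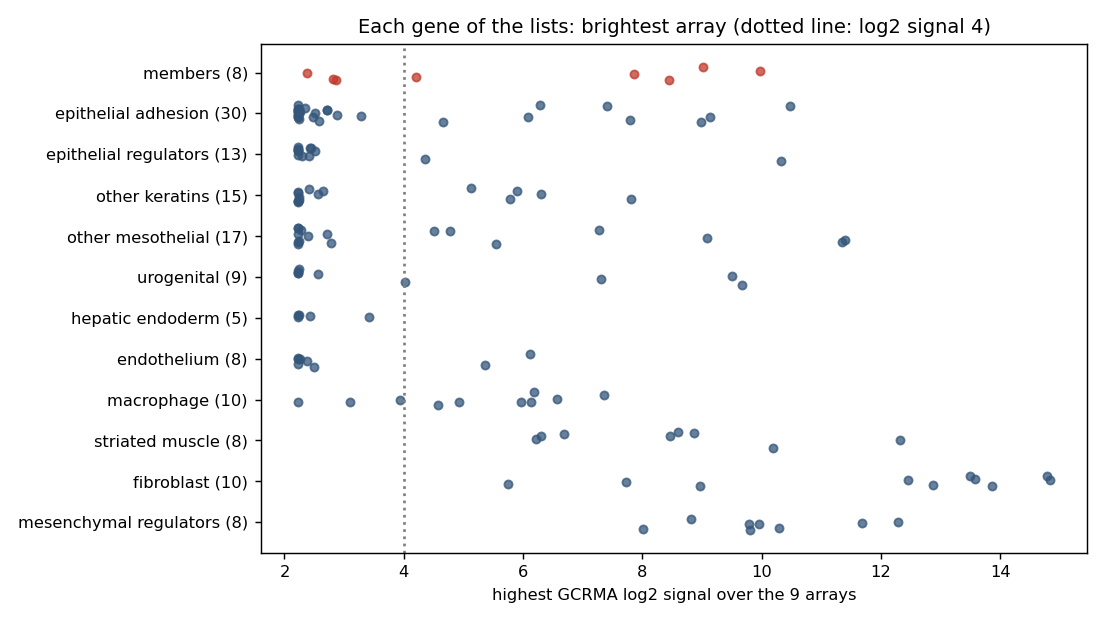
Highest GCRMA log2 signal over the 9 arrays of each gene of 12 lists (number of measured genes in brackets), with the 8 genes of this account in red and 4 as a dotted line. Genes of epithelial adhesion and of epithelial regulation lie mostly to the left of 4, and all 8 mesenchymal regulators and all 10 fibroblast genes lie to the right.

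Of 17 other mesothelial genes measured, 7 were above 4 on any array. From P3 to P5, 3 rose and 0 fell by limma, where 6.13% of all named genes rose and 7.11% fell. At an unadjusted p under 0.05, 3 were higher and 4 lower. Thbd, the thrombomodulin of endothelium and mesothelium, gave 9.70, 9.66 and 9.58 in wild type P3, 11.39, 11.39 and 11.05 in P5, and 8.93, 9.70 and 9.64 in the null. All P5 arrays were above all others, and Thbd rose by 1.63 from P3 to P5 (SE 0.22, limma adjusted p = 0.00755) and was lower in the null than at P5 by -1.85 (limma adjusted p = 0.00544). Nkain4, a membrane protein gene, rose by 1.73 from a mean of 2.91 to 4.63 (SE 0.17, limma adjusted p = 0.00261), and Tbx18, a transcription factor of embryonic mesothelium, by 0.43 from 8.52 to 8.95 (SE 0.10, limma adjusted p = 0.0492, lost in 12 of the 17 refits). Gata6 was highest in the null (6.35, 5.80 and 6.99 in wild type P3, P5 and null) and rose against P5 by 1.20 (limma adjusted p = 0.00997). Bnc1, a zinc finger gene used as a mesothelial marker (means of 3.97, 3.11 and 3.95), and Pdpn, the podoplanin of mesothelium and other cells (11.28, 10.88 and 10.89), had limma adjusted p-values of 0.161 and 0.176 from P3 to P5. Of 9 urogenital genes that share the lineage of Wt1, Lhx9 rose from 8.96 to 9.55 between P3 and P5, by 0.59 (SE 0.07, limma adjusted p = 0.00557), and none of the others was called. The 5 hepatic endoderm genes were all below 4 on every array.

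Markers of other cells moved between the same groups. The summed signal of 10 fibroblast genes, on the linear scale, ranged from 76900 to 80100 in wild type P3, from 94800 to 103000 in P5 and from 71800 to 84400 in the null. Of the 10, 4 rose with passage and the other 6 were not called, where 6.13% of all named genes rose and Krt7 and Krt18 fell. All 10 had a log2 signal above 4 on some array. The 6.13% includes genes near the lowest array value, and the share rising among brighter genes was not counted. The 4 fibroblast calls became 2 without null replicate 1 or 3, without wild type P3 replicate 1 and without any 1 of the P5 arrays, and 1 with the replicate block. Those of Col1a2 and Lum were also lost with the trended robust prior and with the 6 arrays of both groups alone. For the 8 members the same sum was 1940 to 2020, 1150 to 1300 and 1550 to 1850. In the null, beside the lower Krt7, 7 of 8 striated muscle genes and 1 of 10 macrophage genes rose against wild type P3, with median differences of 2.24 and 0.98. Of all named genes, 1.51% rose in that comparison, and the share among brighter genes was again not counted. The 7 muscle calls became 3 without wild type P3 replicate 1 and 4 without wild type P3 replicate 2 or P5 replicate 1. They became 1 with the replicate block and 0 with the 6 arrays of both groups alone. Those of Tnni1, Tnnt1 and Des were also lost with the trended robust prior. The macrophage call was lost with the block and with the 6 arrays alone. The summed macrophage signal was 335 to 544 in the null against 152 to 184 in wild type P3 and 149 to 164 in P5, 7 of the 10 were above 4 on any array, and Ctss, a lysosomal protease, gave 6.57, 5.87 and 6.31 in the null, 4.39, 4.32 and 4.37 in wild type P3. The summed muscle signal was 3400 to 4610 in the null, 1870 to 2040 in wild type P3 and 4330 to 5260 in P5, and all 8 genes were above 4 on some array. From P3 to P5, 1 of the 8 (Acta1) rose and 3 fell by limma, with a median difference of -1.06. At an unadjusted p under 0.05, 1 was higher and 5 were lower. Acta1 (means of 10.57, 12.17 and 10.92 in wild type P3, P5 and null) was the brightest of the 8 in every group and the largest part of the sum. Actc1, the cardiac actin, gave means of 9.62, 7.32 and 3.39 in null, wild type P3 and P5, and fell by 3.93 with passage (limma adjusted p = 0.000569). Of 8 endothelial genes, 2 were above 4 on any array, Pecam1 was not among them, and the sum was 90.7 to 125 in the null, 82.5 to 89.9 in wild type P3 and 58.7 to 72.0 in P5. The part of these other cells in the values of Krt7, Krt18 and Msln was not tested.

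**Figure D5:**
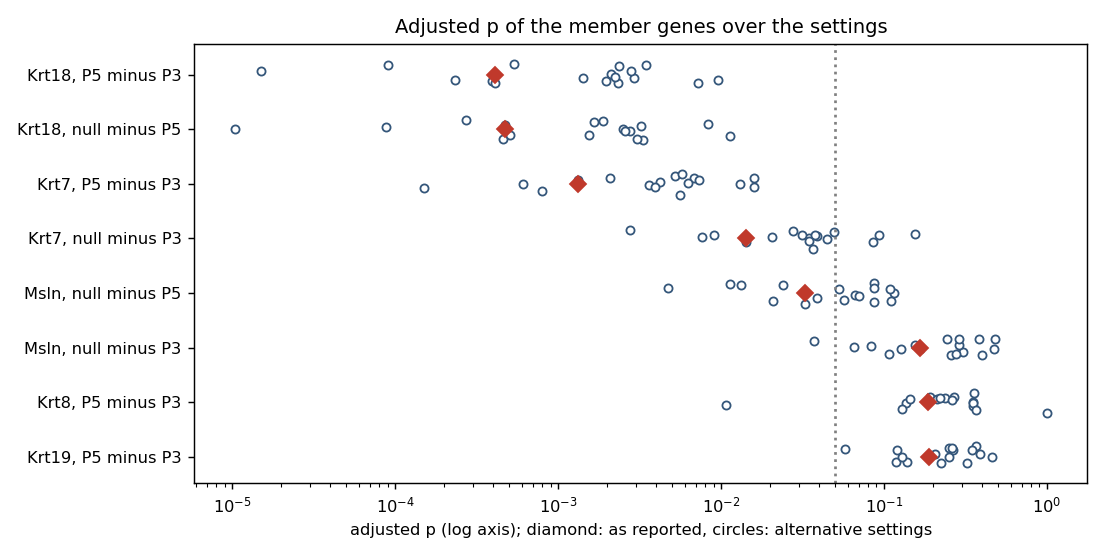
Adjusted p (log axis) of 8 gene and comparison pairs in the reported fit (diamond) and in the alternative settings (circles), with 0.05 as a dotted line. Both comparisons of Krt18 and Krt7 for P5 minus P3 stay to the left of 0.05 in every setting, while Krt7 for null minus P3 and Msln for null minus P5 fall on both sides.

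The fall of both called keratins with passage held in all 17 refits. That of Krt18 ranged from -2.80 to -2.57 with adjusted p-values from 1.5e-05 to 0.00962, and that of Krt7 from -1.02 to -0.89 with adjusted p-values from 0.00015 to 0.0159.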

How the data were processed

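RNA from 9 MEF cultures was hybridised to Affymetrix MOE430_2.0 arrays. The authors deposited log2 signals made with GCRMA, which corrects background from the probe sequence, normalizes by quantiles and summarises each probe-set, and these log2 values were taken without further normalization. The submitters' processing notes also name limma. The sources used here give no version of either. Symbols came from the platform annotation, updated by gene number through a RefSeq table: 34958 probe-sets had 1 symbol (34754 matched by gene number), 932 several and 9211 none here. Where a gene had more than 1 probe-set, the brightest stood for it. All probe-sets and all 9 arrays were fitted with limma 3.58.1 in R 4.3.3 with 3 group means, without a block, and called at a Benjamini-Hochberg adjusted p under 0.05 over 45101 probe-sets. Groups came from the labels. The fit was tested on simulated data. Promoter windows of 5 of the 8 genes were matched.

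The genes, lists and naming rules were chosen with earlier results of these data known. All members are named, with up to 4 genes of each list by smallest p from P3 to P5 and up to 3 between the null and P3, those that define a cell type, and the 10 most alike in profile. Dsg2, Bnc1, Krt42 and the neighbours of Krt18 were named after their values were seen. Depth does not apply to arrays, so the number of arrays limits the precision. The alternatives were a filter above a log2 signal of 4 on at least 3 arrays, a trended robust prior, quantile normalization, median centring, the replicate block, the 6 arrays of 2 groups alone, the mean of the probe-sets, probe-sets without _x_at or _s_at, the methods' thresholds and each array left out in turn. The methods give a p under 0.0001 and a log2 difference of 0.5 for pair-wise comparisons. The p used here was that of a moderated F test over all 3 comparisons. Some listed genes are not reported here.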

Additional observations from a re-analysis of the deposited data

How the results depend on the processing

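Of 267 alternative values for Krt7, Krt8, Krt18, Krt19 and Msln, 246 kept direction and side of the threshold, 14 lost and 3 gained a call, and 4 turned sign. The count of members called from P3 to P5 was 2 in each alternative except with the mean of probe-sets (3, with Krt8). Between the null and P3 it was 1, became 2 with the filter on low values (Msln added, adjusted p = 0.0374) and 0 with the trended robust prior, with the replicate block and with the 6 arrays alone, and was 1 without each array in turn. For the null and P5 it was 2, became 1 with the trended robust prior, the replicate block, the 6 arrays alone and the methods' thresholds, 3 with the mean of probe-sets, and 1 to 2 without each array in turn. The signs that turned were of differences near 0 between the null and P3: Krt8 -0.02 and Krt19 0.00 without null replicate 1, and Krt18 -0.04 without null replicate 2 and -0.08 without wild type P3 replicate 3. Without each array in turn these ranged from -0.02 to 0.33 for Krt8, -0.17 to 0.00 for Krt19 and -0.08 to 0.06 for Krt18. The filter leaves out Krt8, and without _x_at probe-sets only its dimmest one is left, with no difference from P3 to P5 (adjusted p = 1.0). The cause of the other changes was not tested. Over all probe-sets, calls between the null and P3 went from 717 to 59 with the trended robust prior and 1563 with the filter.

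Same-numbered arrays of 2 groups deviated together (r over 0.1) in 4 of 9 pairs, with r from -0.51 to 0.42, so the replicate number was taken as a name. The replicate block changed the calls of Krt7 between the null and P3 and of Msln between the null and P5, as above, and no other member's. Signal over background limits Krt8, Epcam, Upk3b and Wt1.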
